A study of Mus musculus with 40 samples.

Results

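The renal glucose and fructose transporters described here were 8 genes of the sodium-coupled Slc5a family and the facilitative Slc2a family (Slc5a1, Slc5a2, Slc5a10, Slc2a1, Slc2a2, Slc2a4, Slc2a5 and Slc2a9). They were taken from the count table by gene symbol, and all 8 were found among its 55401 genes and passed the filter on low counts in every comparison. RNA sequencing was performed on the renal cortex of 40 single male mice, either heterozygous C57BL/6J-Ins2Akita mice, in which a misfolding insulin damages the beta cell and gives diabetes, or their wild-type (WT) littermates. Mice were treated from 6 to 22 weeks of age. They were gavaged daily with MitoGamide at 10 mg/kg or its vehicle, 10% ethanol in water, or were given MitoQ or its vehicle, water. MitoGamide is a scavenger of dicarbonyls and MitoQ an antioxidant, both directed to mitochondria. The dose of MitoQ, and whether the ethanol and water arms were run together, are not given in the sources used here, so the vehicle and the arm cannot be told apart. The 8 groups were therefore Akita and WT mice on ethanol vehicle, MitoGamide, water vehicle and MitoQ, with 5 mice each. The Akita allele is carried in the germ line, and the diabetes it gives is one of insulin deficiency.

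Glucose and fructose that pass the glomerular filter are taken back by the proximal tubule. Slc5a2 (SGLT2) takes up most of the filtered glucose in the early segments and Slc5a1 (SGLT1) takes up the rest in the late segment, both driven by the sodium gradient, and Slc2a2 (GLUT2) and Slc2a1 (GLUT1) let glucose leave across the basolateral membrane. Slc5a10 (SGLT5) is a sodium-coupled carrier of mannose and fructose found mainly in the kidney, Slc2a5 (GLUT5) is a facilitative fructose carrier, Slc2a9 (GLUT9) carries urate and is known for its part in urate reabsorption, and Slc2a4 (GLUT4) is the insulin-regulated glucose carrier of muscle and fat. Glucose carriers of the proximal tubule are the target of the SGLT2 inhibitors used in diabetic kidney disease.

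Promoter sequences are shown for the 4 transporters that were higher in Akita mice and whose RefSeq start site lies at or near the start of the gene model. Each is shown as the bases before the gene model, since the RefSeq start used for Slc5a10 lies 27 bases and that of Slc2a5 61 bases inside it, and those bases were searched but are not printed. They come from RefSeq on GRCm38.p6, which held an entry for 6 of the 8 genes, and Slc5a2 and Slc2a4 had none. Slc5a10 (ENSMUSG00000042371.12) is on the minus strand, within the interval chr11:61672781-61720826, and the stretch before it is chr11:61720827-61721049. The other 3 genes are on the plus strand. Slc2a5 (ENSMUSG00000028976.10) spans chr4:150119283-150144169 and the stretch before it is chr4:150119094-150119282. Slc2a2 (ENSMUSG00000027690.13) spans chr3:28697903-28731359 and the stretch before it is chr3:28697653-28697902. Slc5a1 (ENSMUSG00000011034.6) spans chr5:33104219-33162870 and the stretch before it is chr5:33103969-33104218. RefSeq held a second entry for Slc5a10, with a start inside the gene model (chr11:61719998-61720235), which is not printed. Each is written 5′ to 3′ along its gene, with capitals for the motif letters found by a search of both strands.
Slc5a10: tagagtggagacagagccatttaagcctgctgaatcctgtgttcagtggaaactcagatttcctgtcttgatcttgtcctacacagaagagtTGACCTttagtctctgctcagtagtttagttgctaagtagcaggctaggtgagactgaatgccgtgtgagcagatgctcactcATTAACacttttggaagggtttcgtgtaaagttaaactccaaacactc
Slc2a5: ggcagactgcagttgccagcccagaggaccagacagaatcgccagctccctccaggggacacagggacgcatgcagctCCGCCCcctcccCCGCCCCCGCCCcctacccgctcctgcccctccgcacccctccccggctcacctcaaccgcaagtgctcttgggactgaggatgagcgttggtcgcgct
Slc2a2: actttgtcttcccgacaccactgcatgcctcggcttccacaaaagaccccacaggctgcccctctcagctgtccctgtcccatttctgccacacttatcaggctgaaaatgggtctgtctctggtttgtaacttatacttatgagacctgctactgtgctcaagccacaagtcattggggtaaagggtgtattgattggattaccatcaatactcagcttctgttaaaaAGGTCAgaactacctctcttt
Slc5a1: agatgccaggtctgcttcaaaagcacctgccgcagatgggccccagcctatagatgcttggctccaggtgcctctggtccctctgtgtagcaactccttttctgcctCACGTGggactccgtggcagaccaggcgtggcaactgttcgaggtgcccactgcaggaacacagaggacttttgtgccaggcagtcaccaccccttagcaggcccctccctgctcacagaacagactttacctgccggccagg
The motifs searched were AGGTCA (the core letters of a nuclear receptor site), CACGTG (the E box), GGGCGG (the GC box), TATAAA (the TATA box) and the plain letters GTTAAT, each also as its reverse complement. Slc5a10 held ATTAAC, the reverse complement of GTTAAT, beginning 48 bases before the end of the printed stretch, and TGACCT, the reverse complement of the nuclear receptor letters, beginning 131 bases before it. Slc2a5 held CCGCCC, the reverse complement of the GC box, at 111, 99 and 93 bases before that end, Slc2a2 held AGGTCA at 21 bases, and Slc5a1 held CACGTG at 143 bases. Among 32851 mouse promoters of 250 bases, 6.43% held GTTAAT, 14% the nuclear receptor letters, 32.7% the GC box and 6.02% the E box, and a match describes letters only. The second entry for Slc5a10 held none of the letters searched. None of the 4 held the TATA box letters, which 12.4% of promoters held. The remaining carriers lie on GRCm38 at chr7:128265657-128272430 on the plus strand (Slc5a2, ENSMUSG00000030781.13), chr4:119108711-119137983 on the plus strand (Slc2a1, ENSMUSG00000028645.11), chr11:69942539-69948188 on the minus strand (Slc2a4, ENSMUSG00000018566.14) and chr5:38349273-38503143 on the minus strand (Slc2a9, ENSMUSG00000005107.13).

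Libraries held 9106654 to 24321424 estimated counts (median 15638394.5), and no 2 libraries were identical. The mitochondrial ribosomal RNA mt-Rnr2 took 7.46% to 31.8% of the counts, and over 25% in 4 libraries (Akita water 2 and 5, WT water 3 and WT MitoQ 3). Levels are given as CPM, estimated counts scaled to a common library size. The WT water 1 library held 378 CPM of summed liver markers, against at most 36.4 CPM in any other. The proximal tubule markers of segments S1 to S2 were detected in every library. In bulk cortex, fewer cells of a type and less RNA per cell cannot be told apart.

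Compared per length, as CPM of the unscaled library total per kilobase of exon sequence, Slc5a2 led the 8 transporters in WT cortex by a wide margin. On ethanol vehicle the levels in WT mice were 112 ± 8.9 for Slc5a2, 37.1 ± 7.2 for Slc5a10, 34.5 ± 5.1 for Slc2a2, 12.6 ± 1.5 for Slc5a1 and 11.9 ± 2.9 for Slc2a5 (mean ± SD, n = 5). Slc2a1, Slc2a4 and Slc2a9 were lowest, with means of 5.76, 3.48 and 3.17. The 5 mice did not separate Slc5a10 from Slc2a2, Slc5a1 from Slc2a5, or Slc2a4 from Slc2a9, while the other neighbours in this order did not overlap. In Akita mice on the same vehicle, Slc5a2 stood at 109 and Slc5a10 at 86.7, and the ranges of these 2 genes overlapped. They were followed by Slc2a2 at 45.1, Slc2a5 at 22.0, Slc5a1 at 15.8, Slc2a1 at 6.92, Slc2a9 at 6.09 and Slc2a4 at 5.41, with overlap between Slc2a1 and Slc2a9 and between Slc2a9 and Slc2a4. Slc2a5 stood above Slc5a1 in these Akita mice without overlap. With the longest coding transcript as length, the order of the last 3 in Akita mice was Slc2a9 at 8.59, Slc2a4 at 7.45 and Slc2a1 at 7.44, and in WT mice Slc2a5 at 12.8 stood before Slc5a1 at 12.6.

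The level of the glucose carrier Slc5a2 relative to the fructose and mannose carrier Slc5a10 was lower on average in Akita mice on each vehicle and drug, which is given as a description with no test. Per length, Slc5a2 was on average 3.14 times Slc5a10 in WT mice on ethanol vehicle, 3.32 times on MitoGamide, 3.38 times on water and 3.02 times on MitoQ. The same mean ratio in Akita mice was 1.30, 1.06, 1.61 and 1.51. The ratios of single mice overlapped between genotypes on water, from 2.58 to 3.92 in WT and 1.04 to 2.75 in Akita mice, and did not overlap in the other treatments. In Akita mice on MitoGamide, the levels per length of Slc5a2 and Slc5a10 were 80.9 and 80.7, and their order was exchanged when totals were scaled by TMM. These ratios follow from the gene models used as length, and with the longest coding transcript as length every ratio was higher, for example 1.29 in Akita mice on MitoGamide and 3.82 in WT mice on ethanol vehicle.

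**Figure D1:**
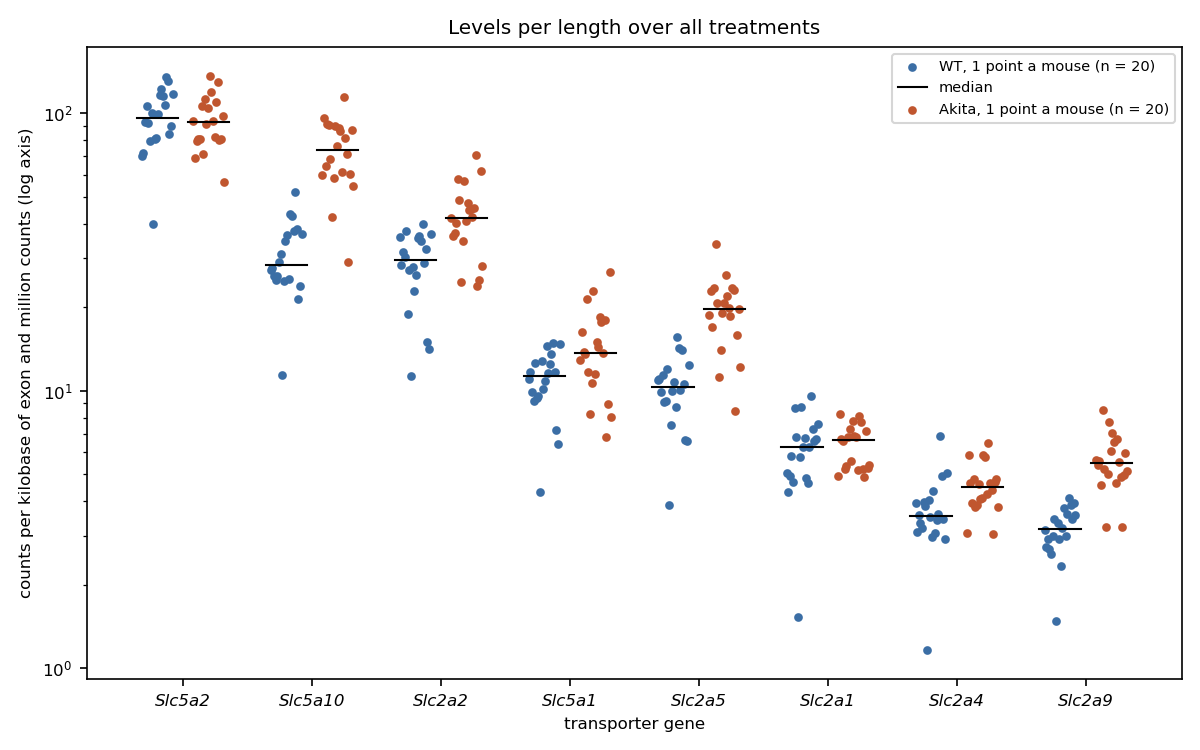
CPM of the unscaled library total per kilobase of exon sequence (log axis) of the 8 transporters in 20 WT and 20 Akita mice, with each point a mouse and the bar the median. Slc5a2 has a median of 96.3 in WT and 92.8 in Akita mice, and Slc5a10 of 28.4 in WT and 74.0 in Akita mice.

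The question of genotype was addressed by comparing Akita with WT mice, first over all 40 libraries with treatment as a term and then within each treatment. Over all libraries 6 of the 8 transporters were higher in Akita cortex, none was lower, and Slc5a2 and Slc2a1 did not pass the test. Over all 17769 genes tested, 22.8% passed in either direction and 11.0% were higher. The median log2 fold change of the 8 transporters was 0.52, beside -0.02 for all genes. Changes are log2 fold changes with their SE from edgeR's quasi-likelihood test, with p-values adjusted by Benjamini-Hochberg over all genes tested.

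The fructose and mannose carrier Slc5a10 had the largest change of the 8 over all libraries, at 1.26 ± 0.11 (2.40-fold, 95% interval 1.05 to 1.48, edgeR adjusted p = 5.6e-12). Its level was 175.8 ± 52.1 CPM in Akita mice against 72.1 ± 18.6 CPM in WT mice (mean ± SD, n = 20 each). The fructose carrier Slc2a5 followed with 0.94 ± 0.11 (1.92-fold, 67.6 ± 23.6 against 34.4 ± 9.1 CPM, edgeR adjusted p = 8.6e-09), and the urate carrier Slc2a9 with 0.84 ± 0.09 (1.79-fold, 28.6 ± 7.4 against 15.8 ± 2.2 CPM, edgeR adjusted p = 1.2e-09). Smaller increases were found in the basolateral glucose carrier Slc2a2, at 0.61 ± 0.12 (1.53-fold, edgeR adjusted p = 1.3e-04), in the late-segment glucose carrier Slc5a1, at 0.43 ± 0.12 (1.34-fold, edgeR adjusted p = 0.0083), and in Slc2a4, at 0.31 ± 0.08 (1.24-fold, edgeR adjusted p = 0.0043). For Slc5a2 the difference was -0.02 ± 0.08 with a 95% interval from -0.18 to 0.13 (edgeR adjusted p = 0.88), with 272.6 ± 57.1 CPM in Akita mice against 276.2 ± 57.1 CPM in WT mice. For Slc2a1 it was 0.09 ± 0.09 with an interval from -0.09 to 0.26 (edgeR adjusted p = 0.54). The 6 calls were made again with each of the 40 libraries left out in turn and without the 4 libraries rich in mt-Rnr2.

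**Figure D2:**
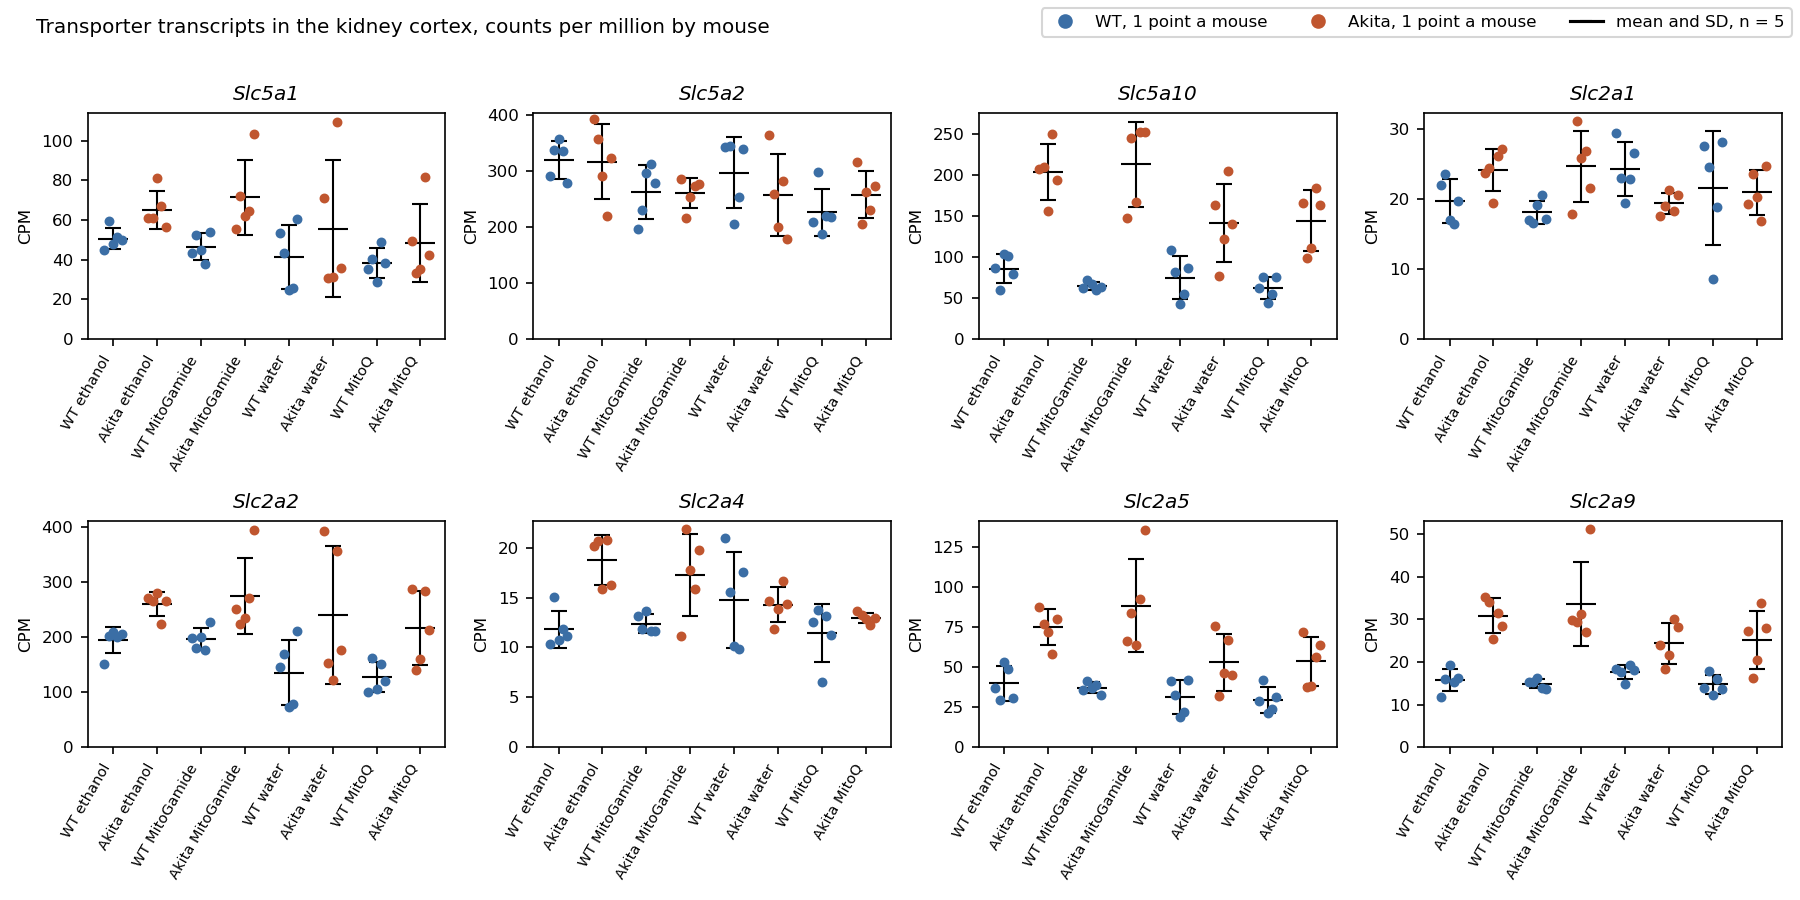
CPM of each transporter in each of the 40 mice by group, with points for mice and a bar for the mean of 5. Slc5a10 lies between 42.8 and 108 CPM in WT mice and between 76.5 and 253 CPM in Akita mice, while Slc5a2 spans 188 to 357 CPM in WT and 178 to 392 CPM in Akita mice.

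Within treatments, Slc5a10 had the largest log2 fold change of the 8 in each of the 4. On ethanol vehicle, Slc5a10 measured 208, 209, 157, 250.5 and 195 CPM in Akita mice and 86.4, 59.6, 103, 102 and 79.5 CPM in WT mice. On MitoGamide it measured 147, 245, 168, 253 and 253 CPM in Akita mice against 62.2, 71.9, 67.6, 59.7 and 64.1 CPM in WT mice. All Akita mice lay above all WT mice in both comparisons, and the WT mice on MitoGamide lay close together. The changes were 1.25 ± 0.14 on ethanol vehicle (2.37-fold, edgeR adjusted p = 1.1e-04) and 1.70 ± 0.15 on MitoGamide (3.26-fold, edgeR adjusted p = 9.7e-05). On MitoQ, Slc5a10 measured 166, 98.8, 111, 184 and 163 CPM in Akita mice against 62.7, 75.3, 43.6, 54.9 and 75.2 CPM in WT mice, again without overlap (1.20 ± 0.18, 2.30-fold, edgeR adjusted p = 0.012). On water vehicle it measured 163, 76.5, 122, 205 and 140.4 CPM in Akita mice against 108, 81.5, 42.8, 54.7 and 86.8 CPM in WT mice. Here the groups overlapped, since the Akita water 2 mouse lay below 3 WT mice, and the change of 0.95 ± 0.26 did not pass (edgeR adjusted p = 0.18, DESeq2 adjusted p = 0.037). The call on MitoQ was lost without the Akita MitoQ 5 library (1.16, edgeR adjusted p = 0.051). Groups without overlap and with Akita higher were found for Slc5a10 in 3 of the 4 treatments, which was reached by 0.642% of all genes.

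Slc2a5 measured 88.0, 76.8, 72.3, 58.1 and 80.2 CPM in Akita mice on ethanol vehicle and 36.7, 29.4, 53.4, 48.7 and 30.8 CPM in WT mice. On MitoGamide it measured 66.5, 84.1, 63.7, 92.9 and 136 CPM in Akita mice against 35.8, 41.1, 37.2, 39.1 and 32.3 CPM in WT mice. Neither pair of groups overlapped, and the Akita MitoGamide 5 mouse was the highest of all 40. The changes were 0.92 ± 0.16 (1.89-fold, edgeR adjusted p = 0.0017) and 1.25 ± 0.19 (2.38-fold, edgeR adjusted p = 0.0018), the latter being 1.03 without the Akita MitoGamide 5 library (edgeR adjusted p = 1.7e-04). In the other arm, Slc2a5 measured 75.8, 32.0, 46.0, 67.1 and 45.0 CPM in Akita mice against 41.6, 32.5, 19.0, 21.8 and 42.1 CPM in WT mice on water, and 72.2, 37.6, 38.1, 56.3 and 63.9 against 28.6, 41.7, 21.4, 23.9 and 31.2 CPM on MitoQ. Both pairs overlapped through the Akita mice numbered 2 and, on MitoQ, also 3. The changes there were 0.79 ± 0.24 (edgeR adjusted p = 0.28) and 0.85 ± 0.20 (edgeR adjusted p = 0.092), of which DESeq2 called that on MitoQ (adjusted p = 0.0075).

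Slc2a9, the urate carrier, measured 35.4, 34.0, 25.3, 31.4 and 28.4 CPM in Akita mice on ethanol vehicle against 11.9, 16.1, 19.3, 15.3 and 16.3 CPM in WT mice. It measured 29.8, 29.5, 31.2, 27.0 and 51.2 CPM in Akita mice on MitoGamide against 15.4, 15.2, 16.3, 13.8 and 13.7 CPM in WT mice. No Akita mouse of these groups reached down to a WT mouse, with changes of 0.97 ± 0.12 (1.96-fold, edgeR adjusted p = 1.4e-04) and 1.17 ± 0.17 (2.26-fold, edgeR adjusted p = 0.0015). Without the Akita MitoGamide 5 library the latter was 0.96 (edgeR adjusted p = 5.4e-05). Akita mice on water measured 24.0, 18.2, 21.6, 30.1 and 28.2 CPM and WT mice 18.3, 17.7, 14.8, 19.4 and 18.2 CPM. On MitoQ the values were 27.3, 16.2, 20.4, 33.8 and 28.0 CPM in Akita mice against 13.9, 18.0, 12.2, 15.9 and 13.6 CPM in WT mice. In both of these, only the Akita mouse numbered 2 fell within the range of the WT mice, and neither change passed (0.49 ± 0.14, edgeR adjusted p = 0.22, and 0.76 ± 0.18, edgeR adjusted p = 0.091). The change on MitoQ passed without the Akita MitoQ 2 library (0.87, edgeR adjusted p = 0.033) and with DESeq2 (adjusted p = 0.011). Slc2a5 and Slc2a9 each had 2 treatments with no overlap and Akita higher, and 2.84% of all genes had at least as many.

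Among the glucose carriers, Slc2a2 and Slc5a1 were higher in Akita mice over all libraries, and their spread between mice was wide in the Akita groups on water and MitoQ. Slc2a2 measured 270.2, 266, 279.9, 223 and 265 CPM in Akita mice on ethanol vehicle and 152, 203, 209, 201 and 206 CPM in WT mice. These groups did not overlap, with a change of 0.43 ± 0.09 (1.35-fold, edgeR adjusted p = 0.0067), a call that was lost with the spread estimated over all 40 libraries (0.41, edgeR adjusted p = 0.43). On MitoGamide, Slc2a2 measured 251, 223, 235, 271 and 395 CPM in Akita mice against 199, 179.9, 200.2, 176 and 227 CPM in WT mice, and overlapped through WT mouse 5 and Akita mouse 2. Its change of 0.48 ± 0.15 did not pass (edgeR adjusted p = 0.053). It passed without the Akita MitoGamide 2 library (0.55, adjusted p = 0.048 by edgeR), the Akita MitoGamide 5 library (0.30, adjusted p = 0.034) or the WT MitoGamide 5 library (0.53, adjusted p = 0.050), with DESeq2 (adjusted p = 0.026), without a filter (edgeR adjusted p = 0.043) and with the replicate block (edgeR adjusted p = 0.031). On water the Akita mice measured 393, 153, 123, 357 and 176 CPM and the WT mice 145, 169, 72.7, 78.8 and 211 CPM, and on MitoQ the values were 287, 141, 159.6, 284 and 212 against 99.2, 162, 105, 151 and 121 CPM. Within each of these Akita groups, mice 1 and 4 were highest and mice 2 and 3, on water also mouse 5, lay within the WT range, with changes of 0.85 ± 0.35 (edgeR adjusted p = 0.57) and 0.75 ± 0.21 (edgeR adjusted p = 0.16). The change on water passed with the spread estimated over all 40 libraries (0.85, edgeR adjusted p = 0.044), and that on MitoQ passed with DESeq2 (0.75, adjusted p = 0.033). Slc2a2 is also the main glucose carrier of liver, whose markers were high in the WT water 1 library, and without that library the change on water was 0.88 (edgeR adjusted p = 0.87).

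Slc5a1 measured 60.9, 60.8, 81.0, 67.0 and 56.5 CPM in Akita mice on ethanol vehicle and 44.8, 59.3, 47.8, 51.6 and 49.9 CPM in WT mice. On MitoGamide it measured 55.3, 71.9, 62.1, 64.7 and 103 CPM in Akita mice against 43.5, 52.7, 44.8, 38.0 and 54.1 CPM in WT mice. The former groups overlapped through the WT ethanol 2 mouse and the latter did not, and both changes passed (0.37 ± 0.10, edgeR adjusted p = 0.024, and 0.61 ± 0.16, edgeR adjusted p = 0.028). The call on ethanol vehicle was lost without the WT ethanol 1 library (0.33, edgeR adjusted p = 0.061). The call on MitoGamide was lost without the Akita MitoGamide 2 library (0.61, edgeR adjusted p = 0.056) or the WT MitoGamide 1, 3 or 4 library (0.59, 0.59 and 0.54, with adjusted p = 0.069, 0.065 and 0.071). Both calls were lost with the spread estimated over all 40 libraries (0.35, edgeR adjusted p = 0.57, and 0.58, edgeR adjusted p = 0.13). On water, Slc5a1 measured 71.1, 31.0, 31.2, 109.5 and 35.8 CPM in Akita mice against 53.6, 43.4, 24.96, 25.5 and 60.4 CPM in WT mice. On MitoQ it measured 49.4, 33.5, 35.1, 81.6 and 42.6 CPM in Akita mice against 35.1, 40.2, 28.6, 49.0 and 38.2 CPM in WT mice. Each of these Akita groups had its highest value in mouse 4, and the groups overlapped, with 0.44 ± 0.35 on water (edgeR adjusted p = 1.0) and 0.33 ± 0.22 on MitoQ (edgeR adjusted p = 0.79). Without mouse 4 of the Akita group these were 0.07 and 0.05.

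Slc5a2, which carries most of the reabsorbed glucose, did not differ beyond its spread in any treatment. It measured 392, 357, 291, 219 and 322 CPM in Akita mice on ethanol vehicle and 289.9, 336, 357, 336 and 278 CPM in WT mice. On MitoGamide it measured 284, 215, 253, 272 and 276 CPM in Akita mice against 196, 230.1, 296, 312 and 279 CPM in WT mice. The groups overlapped throughout both. On water the values were 364, 258, 200.4, 282 and 178 CPM in Akita mice against 342, 343, 205, 254 and 339 CPM in WT mice, and on MitoQ 315, 206, 262, 230.3 and 273 against 209, 298, 188, 219.7 and 217 CPM. The differences were -0.01 ± 0.13 on ethanol vehicle, -0.18 ± 0.20 on water, -0.02 ± 0.13 on MitoGamide and 0.17 ± 0.14 on MitoQ, with edgeR adjusted p from 0.87 to 1.0. The 95% interval over all libraries, -0.18 to 0.13 on the log2 scale, bounds the average difference.

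The widely expressed glucose carrier Slc2a1 and the insulin-regulated Slc2a4 were low in cortex, and each was called in 1 of the 4 treatments. Slc2a4 measured 20.2, 20.7, 15.8, 20.8 and 16.2 CPM in Akita mice on ethanol vehicle and 10.4, 15.0, 10.7, 11.9 and 11.2 CPM in WT mice, without overlap (0.67 ± 0.11, 1.59-fold, edgeR adjusted p = 0.0014). On MitoGamide the values were 11.1, 21.9, 17.8, 15.9 and 19.7 CPM in Akita mice against 13.2, 11.8, 13.6, 11.6 and 11.7 CPM in WT mice. There the Akita MitoGamide 1 mouse lay below all WT mice and the others above them, and the change of 0.47 ± 0.15 did not pass (edgeR adjusted p = 0.055). It passed without that library (0.58, edgeR adjusted p = 0.0083) and with DESeq2 (adjusted p = 0.036). On water and MitoQ the Slc2a4 groups overlapped, with -0.01 ± 0.18 and 0.17 ± 0.14, and without the WT water 1 library the former was 0.14. Of the tissues known for Slc2a4, the skeletal muscle list summed to 0 to 4.93 CPM, with Myh4 at 0 in all 40 libraries. The adipocyte list summed to at most 5.06 CPM in 36 libraries, including all on ethanol vehicle and MitoGamide, and to 14.8 CPM in WT water 1, 17.3 in Akita water 4, 15.1 in Akita MitoQ 2 and 9.22 in WT MitoQ 4. Slc2a4 was the highest of its group in WT water 1 and Akita water 4 but not in Akita MitoQ 2 or WT MitoQ 4. Over the 40 mice, with group means subtracted, Slc2a4 and the adipocyte list had r of 0.31 and rho of 0.13 (adjusted permutation p = 0.16, and r = 0.13 without 2 mice).

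For Slc2a1 the values on ethanol vehicle were 23.8, 24.5, 19.4, 26.2 and 27.2 CPM in Akita mice against 22.0, 23.6, 17.1, 16.4 and 19.7 CPM in WT mice. On MitoGamide they were 18.0, 31.2, 25.9, 26.9 and 21.7 CPM in Akita mice against 17.1, 16.6, 19.1, 20.6 and 17.2 CPM in WT mice. The groups overlapped in both, and the change passed on MitoGamide (0.44 ± 0.13, edgeR adjusted p = 0.040) but not on ethanol vehicle (0.30 ± 0.11, edgeR adjusted p = 0.081). The call on MitoGamide was lost without any library of that comparison other than Akita MitoGamide 1 and 5, in 8 of 10 cases, with edgeR adjusted p from 0.051 to 0.095. It was also lost without a filter (0.45, edgeR adjusted p = 0.055) and with the spread estimated over all 40 libraries (0.40, edgeR adjusted p = 0.095). On ethanol vehicle the change passed without the Akita ethanol 3 library (0.37, edgeR adjusted p = 0.035) or the WT ethanol 2 library (0.37, edgeR adjusted p = 0.038). On water, Slc2a1 measured 17.7, 19.0, 21.4, 18.3 and 20.6 CPM in Akita mice against 29.4, 23.1, 19.5, 22.9 and 26.7 CPM in WT mice, the other direction, and did not pass (-0.29 ± 0.13, edgeR adjusted p = 0.64). On MitoQ the difference was -0.05 ± 0.23 (edgeR adjusted p = 0.99), where the WT MitoQ 3 mouse was the lowest of all at 8.65 CPM.

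**Figure D3:**
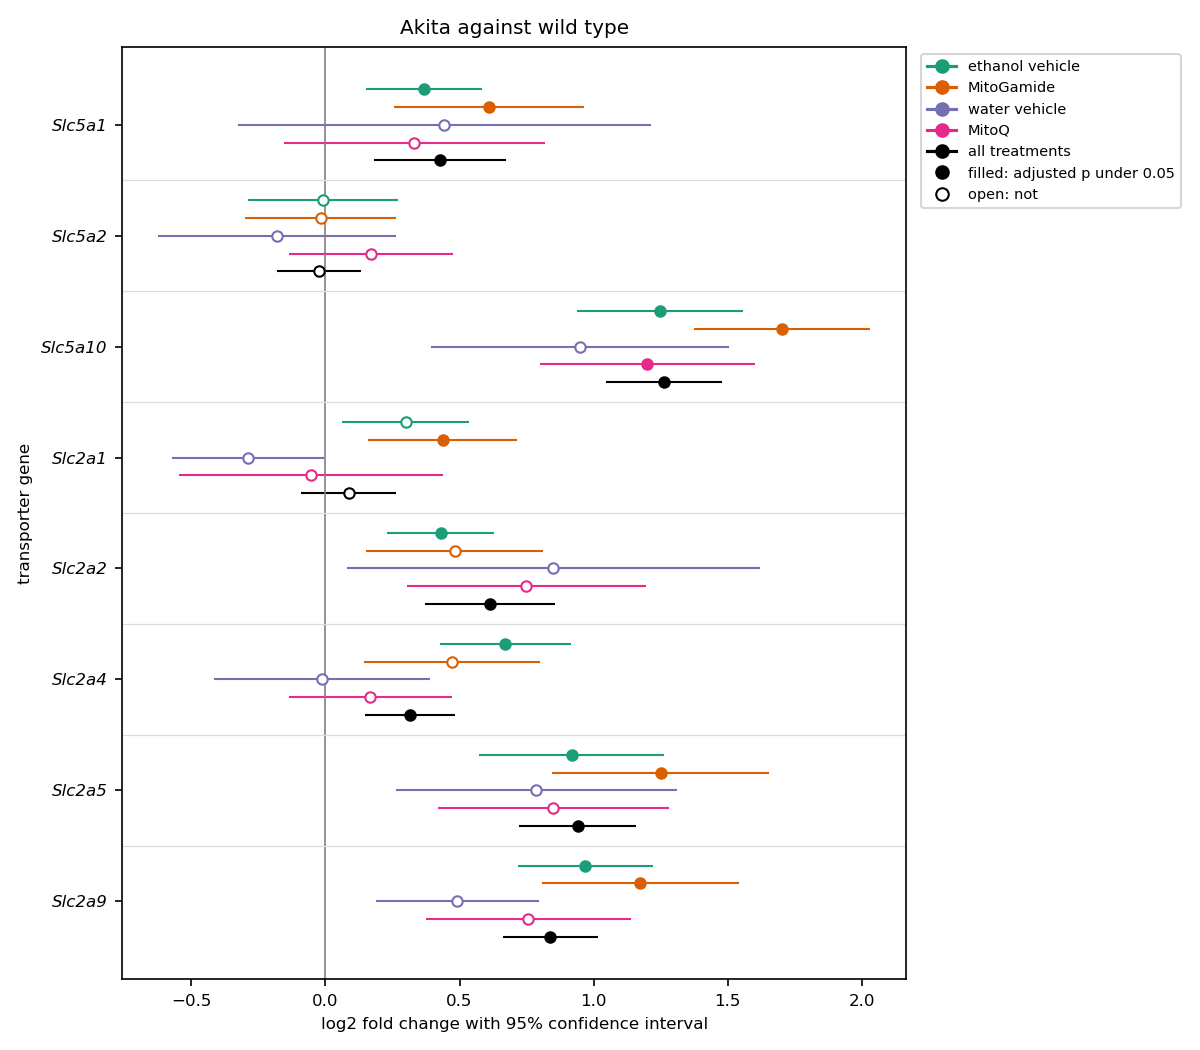
Log2 fold change of Akita against WT for each transporter within each treatment and over all 40 libraries, with 95% intervals. Slc5a10 lies between 0.95 and 1.70 in the 4 treatments, and Slc5a2 between -0.18 and 0.17.

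Counted by treatment, 6 of the 8 transporters passed on ethanol vehicle, all higher in Akita mice, beside 16.4% of all genes in either direction and 8.18% higher. On MitoGamide 5 passed, all higher, beside 14.3% of genes in either direction and 7.71% higher. On MitoQ 1 passed, Slc5a10, beside 0.557% and 0.265%. On water none passed, beside 0.552% of genes (101, with 354 by DESeq2, and 1384 genes at an unadjusted p under 0.05), while DESeq2 called Slc5a10. Groups did not overlap, with Akita higher, for 5 transporters on ethanol vehicle (5.86% of all genes), 4 on MitoGamide (6.62%), 1 on MitoQ (1.25%) and none on water (0.748%). The count on MitoGamide was 3 without the WT MitoGamide 1, 3 or 4 library, and that on MitoQ was 0 without Akita MitoQ 5 and 2 without Akita MitoQ 2. With the spread estimated over all 40 libraries, the counts were 4 on ethanol vehicle (without Slc5a1 and Slc2a2), 3 on MitoGamide (without Slc5a1 and Slc2a1), 3 on water (Slc5a10, Slc2a2 and Slc2a5) and 3 on MitoQ (Slc5a10, Slc2a5 and Slc2a9).

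Whether the genotype difference itself changed between treatments was tested by interaction terms, and no transporter passed in any of the 3 tests. Between MitoGamide and ethanol vehicle, the difference of the genotype effects was largest for Slc5a10, at 0.45 ± 0.22, and lowest for Slc2a4, at -0.21 ± 0.20 (edgeR adjusted p = 0.61 and 0.77). Between ethanol and water vehicle it was 0.68 ± 0.22 for Slc2a4, 0.58 ± 0.17 for Slc2a1, 0.48 ± 0.19 for Slc2a9 and 0.30 ± 0.31 for Slc5a10, and lowest for Slc2a2, at -0.42 ± 0.38. The first 3 had unadjusted p of 0.0058, 0.0029 and 0.018, and the edgeR adjusted p was 1.0 for every transporter. Between MitoQ and water it ranged from -0.12 ± 0.45 for Slc5a1 to 0.35 ± 0.25 for Slc5a2. No gene of the table passed these 3 tests with edgeR, where 1435, 767 and 207 genes had an unadjusted p under 0.05 and DESeq2 called 0, 2 and 0. The differences in calls between treatments are therefore not shown to be differences in effect.

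The effect of each drug was examined against its own vehicle in each genotype, using the same vehicle groups as the comparisons of genotype. None of the 8 transporters passed in any of these 4 comparisons. In Akita mice on MitoGamide, changes ranged from -0.29 ± 0.14 for Slc5a2 (edgeR adjusted p = 0.27) to 0.23 ± 0.19 for Slc2a5 (edgeR adjusted p = 0.51), with 0.06 ± 0.17 for Slc5a10, beside 1.26% of all genes called (DESeq2 called 1022 genes and no transporter). Without the Akita MitoGamide 5 library the change of Slc2a5 was 0.02. In this comparison the summed endothelial markers differed by 0.49 (exact p = 0.00794, 2 of 5 genes called higher) and the smooth muscle markers by 0.49 (exact p = 0.0397, 0 of 3 called), and their part in these values was not tested. The share of mt-Rnr2 was 17.7% to 22.4% in Akita mice on MitoGamide and 13.2% to 18.6% in those on its vehicle. In WT mice on MitoGamide, changes ranged from -0.40 ± 0.12 for Slc5a10 (edgeR adjusted p = 0.33, unadjusted 0.0070) to 0.07 for Slc2a4, with -0.28 for Slc5a2. Slc5a10 thus measured 59.7 to 71.9 CPM in WT mice on MitoGamide against 59.6 to 103 CPM in WT mice on its vehicle, which overlapped. The share of mt-Rnr2 was 14.7% to 17.1% in WT mice on MitoGamide and 12.5% to 13.7% in those on its vehicle, without overlap, and its part in these values was not tested. In this comparison edgeR called 0% of genes, with 1841 at an unadjusted p under 0.05 and 73 called by DESeq2.

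In Akita mice on MitoQ, changes ranged from -0.24 ± 0.35 for Slc5a1 to 0.04 for Slc2a1, with -0.20 for Slc2a4. In WT mice on MitoQ they ranged from -0.41 ± 0.16 for Slc5a2 to -0.09 for Slc2a2, with -0.39 for Slc2a4, so that all 8 were below their level on water and none passed (edgeR adjusted p = 1.0 for each). Neither comparison called any gene with edgeR (0% each, with 363 and 575 genes at an unadjusted p under 0.05, and 0 and 2 called by DESeq2). The comparison of the vehicles, ethanol against water, called 12.7% of genes in Akita mice and 0% in WT mice (4959 at an unadjusted p under 0.05, 724 by DESeq2), and none of the 8 transporters. The 2283 genes called in Akita mice became 0 with the replicate block and 1 without the libraries with over 25% mt-Rnr2. In Akita mice the changes ran from 0.02 ± 0.26 for Slc2a2 to 0.41 ± 0.20 for Slc5a10 (edgeR adjusted p = 0.14), with 0.26 for Slc2a4 (edgeR adjusted p = 0.10). Without the Akita water 1 library Slc2a5 passed (0.51, edgeR adjusted p = 0.036), and without Akita water 4 Slc5a10 passed (0.55, edgeR adjusted p = 0.040). In WT mice they ran from -0.41 ± 0.19 for Slc2a4 (edgeR adjusted p = 0.18) and -0.39 ± 0.13 for Slc2a1 (edgeR adjusted p = 0.15) to 0.45 ± 0.24 for Slc2a2 (edgeR adjusted p = 0.23). Between the vehicles, summed S1 to S2 markers differed by 0.45 in Akita mice and 0.56 in WT mice (exact p = 0.0635 and 0.0238), endothelial markers by 0.40 and 0.41 (exact p = 0.0159 and 0.0476), smooth muscle markers by -0.51 and -0.47 (exact p = 0.0159 and 0.0238), and, in Akita mice, thick ascending limb markers by 0.40 and distal convoluted tubule markers by -0.50 (exact p = 0.0159 and 0.00794). The median share of mt-Rnr2 was 22.2% on water and 16.0% on ethanol vehicle in Akita mice, and 15.6% and 13.4% in WT mice. The part of these differences in the vehicle comparison was not tested.

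**Figure D4:**
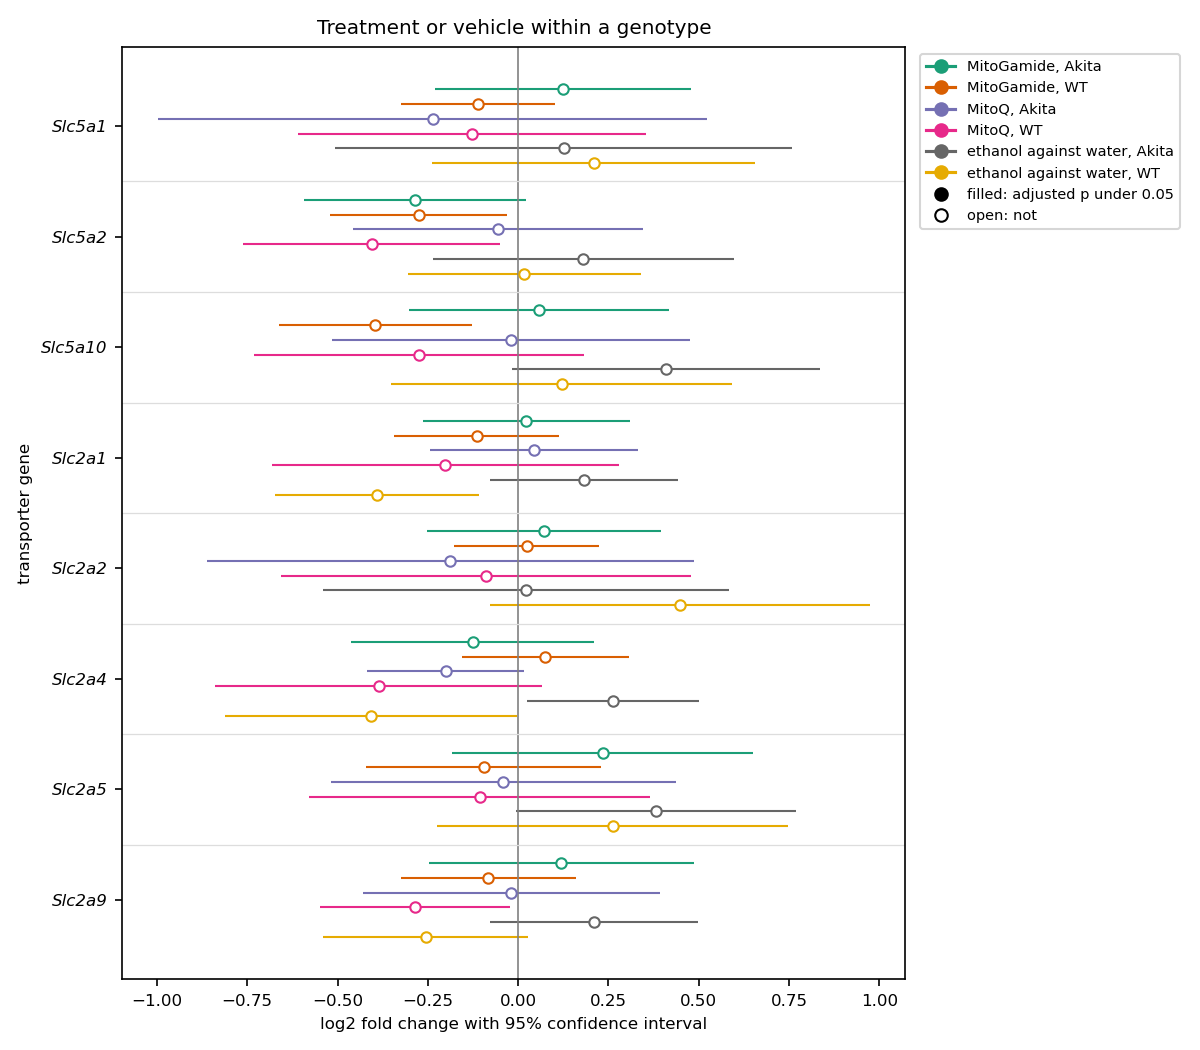
Log2 fold change of each transporter for MitoGamide against ethanol vehicle, MitoQ against water vehicle and ethanol against water vehicle, in Akita and WT mice, with 95% intervals. The values of the drug comparisons lie between -0.41 and 0.23. Those of ethanol against water lie between 0.02 and 0.41 in Akita mice and between -0.41 and 0.45 in WT mice. None passed after adjustment.

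Other genes of the same families and of the pathway were examined over all 40 libraries, where 22.8% of all genes passed in either direction and 11.0% were higher. Of 17 other Slc2a and Slc5a genes, 13 were tested, of which 3 rose (Slc5a6, a vitamin carrier, at 0.45 ± 0.10, Slc5a11, a myo-inositol carrier, at 0.30 ± 0.06, and Slc5a9, a sodium-glucose carrier, at 0.21 ± 0.06) and 1 fell (Slc5a4a, at -1.12 ± 0.34, edgeR adjusted p = 0.013). Among 18 regulators and partners of glucose transport, 4 rose and none fell, with a median log2 fold change of -0.02 over the list. Sgk1, a kinase induced by salt-retaining hormones, rose by 1.11 ± 0.13 (edgeR adjusted p = 1.9e-08), Txnip, a glucose-responsive inhibitor of thioredoxin, by 0.51 ± 0.19 (edgeR adjusted p = 0.049), and the sodium pump subunit Atp1b1 by 0.32 ± 0.07. The partner of SGLT2, Pdzk1ip1, was at -0.02 ± 0.08, and the transcription factor Hnf4a was at -0.19 ± 0.08, without passing. On ethanol vehicle 3 of the 18 were called higher and 1 lower, beside 16.4% of all genes in either direction. The lower one was Hnf4a (-0.28, edgeR adjusted p = 0.014). Within treatments Sgk1 passed on water (1.51, edgeR adjusted p = 0.015), MitoGamide (1.05, edgeR adjusted p = 0.0014) and MitoQ (1.51, edgeR adjusted p = 0.0018), and was at 0.42 on ethanol vehicle without passing (edgeR adjusted p = 0.29).

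For fructose and urate handling, 10 genes were tested over all libraries, of which 3 rose and 4 fell, a larger share than the 22.8% of all genes, with no test of that difference. Tkfc, which acts in fructose breakdown, and Xdh, which forms urate, rose by 0.25 ± 0.07 and 0.47 ± 0.09 (edgeR adjusted p = 0.0040 and 7.8e-05). Khk, which phosphorylates fructose, was at -0.06 ± 0.10 (edgeR adjusted p = 0.75). The urate and anion carriers Slc22a12, Slc17a1 and Slc17a3 fell, with -0.62 ± 0.10, -0.45 ± 0.11 and -1.04 ± 0.10 (edgeR adjusted p = 3.3e-06, 0.0017 and 2.2e-10), as did Glyctk, a glycerate kinase, at -0.67 ± 0.10 (edgeR adjusted p = 1.5e-06). Slc2a9 rose in the same libraries in which these 3 carriers fell. Within the drug comparisons the genes of these lists gave 1 call, Mlxipl, a glucose-responsive transcription factor, in Akita mice on MitoGamide (-0.57, edgeR adjusted p = 0.030). That call was lost with the replicate block, under which the 214 genes called in this comparison became 0, and the fit of all 40 libraries called 32 genes.

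Markers of the tubule segments moved with genotype beside these changes. The summed level of 7 markers of the late segment S3 differed between Akita and WT mice by -1.44 on the log2 scale on ethanol vehicle, with 741 to 1032 CPM in Akita and 1999 to 3260 CPM in WT mice (exact permutation test, two-sided, p = 0.00794). It differed by -1.68 on water (exact p = 0.00794), -1.59 on MitoGamide (exact p = 0.00794) and -1.32 on MitoQ (exact p = 0.0397), where 0.00794 is the smallest p that 2 groups of 5 allow. Of the 7 genes, 4 were called lower on ethanol vehicle, 2 on water, 4 on MitoGamide and 0 on MitoQ, and 1 was called higher on ethanol vehicle and on water. Over all libraries 5 of the 7 fell, among them Slc22a7 (-2.34), Acsm3 (-1.92) and Slc7a13 (-1.61), and Slc7a12 rose (1.81). Atp11a, which also fell (-1.31), was the most abundant and weighs most in the sum. Its mean was 1405 CPM in WT and 573 CPM in Akita mice. Slc5a1, a carrier of this late segment, was higher over all libraries (0.43). Within treatments it passed on ethanol vehicle and MitoGamide, and not on water (0.44) or MitoQ (0.33).

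The summed level of 8 markers of the early segments S1 to S2 differed less, by -0.25 on ethanol vehicle (exact p = 0.0397), -0.32 on MitoGamide (exact p = 0.00794), -0.15 on water (exact p = 0.563) and -0.04 on MitoQ (exact p = 0.857). Its members went both ways. Over all libraries Lrp2 (-0.38) and Slc34a1 (-0.29), the most abundant of the 8, fell, while Slc7a7 (0.42) and Slc7a8 (0.33) rose, and the other 4 did not pass. Principal cell markers were higher in Akita mice by 0.46 on ethanol vehicle, 0.83 on MitoGamide and 0.47 on MitoQ (exact p = 0.0238, 0.00794 and 0.00794), with 0.14 on water (exact p = 0.437). Of their 4 genes, 1 was called on ethanol vehicle, 3 on MitoGamide and 0 on MitoQ. Podocyte markers were higher by 0.25, 0.45 and 0.25 in the same 3 treatments (exact p = 0.0159, 0.0476 and 0.0317), with 0.06 on water (exact p = 0.730), and 3, 3 and 0 of their 4 genes were called on ethanol vehicle, MitoGamide and MitoQ. Macrophage markers differed by -0.45 on ethanol vehicle, -0.63 on water and -0.60 on MitoQ (exact p = 0.0159, 0.00794 and 0.0317), and by -0.12 on MitoGamide (exact p = 0.627). In each of the first 3 treatments 1 of the 5 macrophage genes was called. Csf1r, the most abundant, was at -0.71 over all libraries and Adgre1 at -0.43, and C1qa (-0.13), C1qb (-0.07) and Cd68 (0.13) did not pass. Markers of the distal convoluted tubule differed by 0.31 on ethanol vehicle (exact p = 0.0635) and 0.25 on MitoGamide (exact p = 0.0317), with 1 of 3 genes called in each, and by 0.19 on water and on MitoQ (exact p = 0.484 and 0.405). Markers of the thick ascending limb were at -0.21 on ethanol vehicle, -0.21 on MitoGamide, -0.58 on water and -0.42 on MitoQ (exact p = 0.127, 0.405, 0.0635 and 0.222), and over all libraries 1 of the 4, Umod, fell (-0.50, edgeR adjusted p = 6.4e-04). The summed liver markers were higher on ethanol vehicle (0.42, exact p = 0.0159), where 2 of the 5 genes had enough counts to be tested and 0 were called, and over all libraries the sum differed by -0.24. These exact p-values are not adjusted over the 14 lists and 4 treatments. The median share of mt-Rnr2 was higher in Akita than in WT mice in each treatment, with 16.0% against 13.4% on ethanol vehicle, 19.4% against 16.3% on MitoGamide, 22.2% against 15.6% on water and 19.8% against 17.5% on MitoQ, and the groups did not overlap on MitoGamide (17.7% to 22.4% against 14.7% to 17.1%). The part of these markers and of mt-Rnr2 in the results for the transporters was not tested.

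From mouse to mouse, the levels of the transporters were compared within groups. After each group's mean was subtracted, the log2 CPM of 26 of 28 pairs was positively correlated over the 40 mice. The median Pearson r was 0.55, and 18 pairs had an adjusted permutation p under 0.05. The same shares over pairs of all genes were not computed, so these counts are not shown to be particular to the transporters. The closest pair was Slc5a1 and Slc2a2, the apical and basolateral glucose carriers (r = 0.87, rho = 0.87, permutation p = 1e-05, the smallest these permutations give, adjusted p = 1.4e-04, and r = 0.87 without the 2 most distant mice). The fructose carriers Slc5a10 and Slc2a5 followed (r = 0.83, rho = 0.81, adjusted permutation p = 1.4e-04, and 0.79 without 2 mice). Slc2a1 and Slc2a4 were correlated with each other (r = 0.65, rho = 0.44, adjusted permutation p = 0.0027, and 0.56 without 2 mice). Slc2a1 was otherwise the least correlated, with r from -0.05 to 0.31 to the remaining members.

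These correlations shared library and depth with the tissue markers. Over the same 40 mice, Slc2a5, Slc5a2, Slc2a2 and Slc5a10 had r of 0.77, 0.74, 0.71 and 0.65 with the summed S1 to S2 markers, and r with the share of mt-Rnr2 ran from -0.26 for Slc2a9 to -0.58 for Slc5a10. Of the relations to mt-Rnr2, those of Slc5a10, Slc2a4, Slc2a1 and Slc2a5 had an adjusted permutation p under 0.05 (0.015, 0.021, 0.034 and 0.034), and those of the other 4 had 0.091 to 0.16, adjusted over 32 relations to tissue markers and mt-Rnr2. By rank (rho), Slc5a10 and Slc2a4 had an adjusted permutation p of 0.042 each. Slc2a1 and Slc2a5 did not pass by rank (adjusted permutation p = 0.12 and 0.088). With the summed S1 to S2 markers, Slc5a1 and Slc2a4 had r of 0.56 and 0.54 (adjusted permutation p = 0.021 each). Slc2a1 had r of 0.58 with the summed S3 markers (adjusted permutation p = 0.0060). Slc2a9, Slc5a1 and Slc2a2 had -0.51, -0.36 and -0.33 with the S3 markers (adjusted permutation p = 0.054, 0.11 and 0.13). The remaining transporters lay from -0.085 to 0.21. The part of segment content and mt-Rnr2 in the correlations between transporters was not tested.

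**Figure D5:**
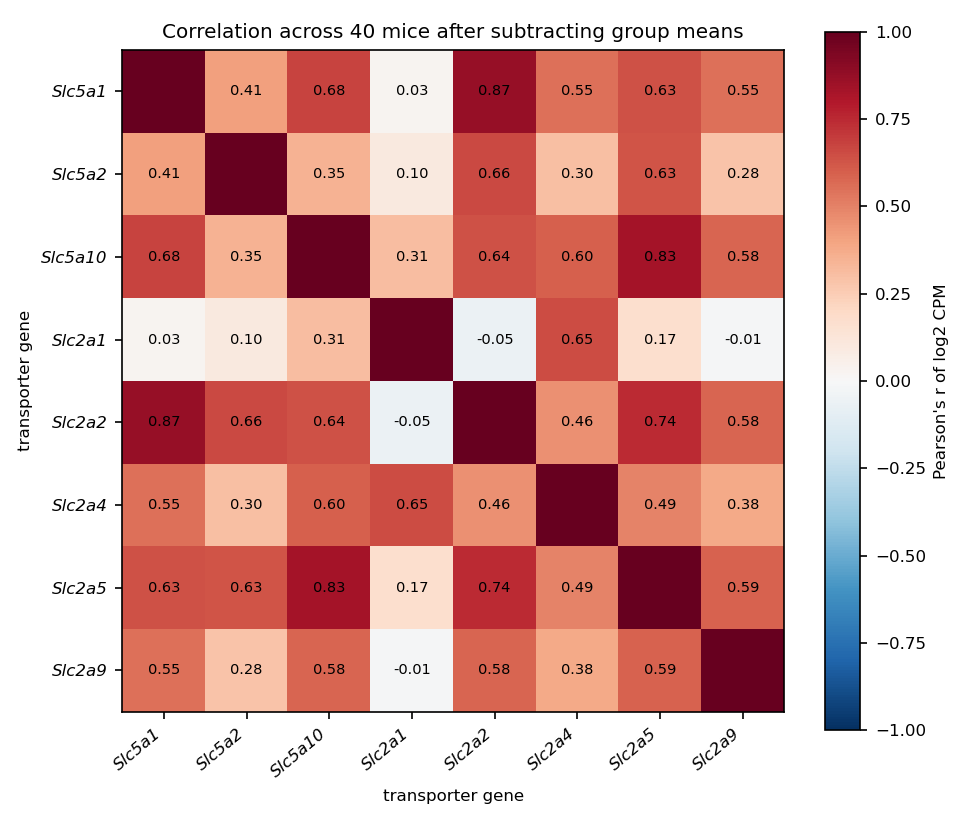
Pearson r of log2 CPM between each pair of transporters over 40 mice after each group's mean was subtracted. Slc5a1 with Slc2a2 (0.87) and Slc5a10 with Slc2a5 (0.83) are highest, and Slc2a1 has values near 0 with several others.

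The genes most like each transporter were found by Pearson correlation of log2 CPM over all 40 libraries among 17768 genes, as a description in which group differences and libraries are shared. Slc5a10 was most like Pdxk, a pyridoxal kinase (0.95, and 0.84 within groups), with its fellow fructose carrier Slc2a5 among its 3 closest genes (0.93, and 0.83 within groups). Slc2a2 was most like Apmap and Acaa2 (0.95 each) and Slc5a1 most like Retsat (0.94, and 0.92 within groups). Slc2a9 was most like the metallothionein Mt1 (0.92, and 0.65 within groups), and Slc5a2 was most like Acaa1a, a peroxisomal thiolase (0.86), with the phosphate carrier Slc34a3 next (0.81). Slc2a1 was most like the brain-type creatine kinase Ckb (0.83) and Slc2a4 most like Cd82 (0.89).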

How the data were processed

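RNA was extracted from the renal cortex of 40 single mice, depleted of ribosomal RNA and made into directional libraries (NEBNext Ultra II Directional), which were read from 1 end for 100 cycles. The deposited table, per the labels and the study's methods, holds estimated counts per gene that the authors made by trimming reads with Skewer and assigning them to GENCODE mouse transcripts with kallisto 0.46.1, summarised in R 4.0.2 (versions from the submitters' processing notes). Whether strand was used in counting is not given in the sources used here, so reads of Slc5a2 and BC017158 (597 shared exon bases), Slc5a10 and Fam83g or Grap (397) and Slc2a1 and Gm12868 (105) could be mixed.

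Counts were rounded to whole numbers and tested with edgeR 4.0.16 (limma 3.58.1, R 4.3.3) by the quasi-likelihood test after TMM normalization, on genes averaging at least 10 counts over the libraries of each comparison, with Benjamini-Hochberg adjustment over all genes tested and 0.05 as threshold. Each comparison used its own 10 libraries, the fit over all 40 had treatment as an additive term, and interaction terms used 20. CPM were scaled by TMM over the 40 libraries, with a prior count of 2 on the log2 scale, except that levels per kilobase used library totals without TMM. Lengths and positions came from GENCODE release M21 on GRCm38, which is not the release the study's methods name for the counting, so levels per kilobase and their ratios rest on lengths of another release (the versioned identifiers of all 8 genes matched). Correlations used 100000 permutations of mice within groups. The labels name single mice, so p-values measure the spread between mice. The edgeR steps were tested on simulated counts drawn separately for each gene. Those counts held no shared differences in tissue content or mt-Rnr2, so that test does not cover such differences.

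All 8 transporters were named in every comparison, the 3 most similar genes were found for each, and other lists were named where called, except a few genes that are not reported here. The members and lists were chosen with earlier results of these data known. Alternatives were DESeq2 1.42.0, RLE size factors, the table without its filter, a stricter filter (10 or more counts per library), 1 fit of all 40 libraries, the replicate number as a block, each library left out, and, chosen after the data were seen, leaving out the 4 libraries with over 25% mt-Rnr2. Replicate numbers were not used as pairs in the main tests, since no comparison had every pair above 0.1 (correlations of deviations from -0.46 to 0.66 over 50 pairs). Some equal numbers were alike. In the comparisons among water and MitoQ groups, replicate 3 had 0.36 to 0.60 and replicate 4 had -0.42 to -0.097. Whether mice of equal number shared handling was not tested.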

Additional observations from a re-analysis of the deposited data

Results flagged for a closer look

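Single mice that stood apart from the other 4 of their group by Dixon's test were found in 5 of the 72 groups of values examined (8 transporters and the share of mt-Rnr2 in 8 groups), where chance flags about 1 in 20 groups, or 3.6. Slc2a2, the basolateral glucose carrier, gave 3 of them. The WT ethanol 1 mouse measured 151.6 CPM of Slc2a2 (the others 200.9 to 209.4), the Akita ethanol 4 mouse 223.4 CPM (265.3 to 279.9) and the Akita MitoGamide 5 mouse 395.0 CPM (223.4 to 270.7). The Akita MitoGamide 5 mouse was also apart for the urate carrier Slc2a9, with 51.2 CPM (27.0 to 31.2). Its library held 255 CPM of summed S3 markers, against 826 to 1723 CPM in the others of its group. The part of segment content in its values was not tested. The WT MitoQ 3 library held 31.3% mt-Rnr2 (15.4% to 19.4% in the others). No interaction between genotype and treatment passed for any transporter.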

How the results depend on the processing

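For 69 log2 fold changes of the transporters (all of those in the comparisons of genotype, and those named in the others), 427 values under other settings and 955 with a library left out kept direction and side of the threshold, 13 and 9 newly passed, 5 and 14 no longer passed, and 6 and 42 changed sign. The counts of transporters called moved as follows. On water (0 called) DESeq2 called 1 and the fit of all 40 libraries 3. On ethanol vehicle (6) the fit of all 40 called 4. On MitoGamide (5) DESeq2 called 7 and the fit of all 40 called 3, and on MitoQ (1) DESeq2 called 4 and the fit of all 40 called 3. With a library left out the counts ran from 5 to 7 on ethanol vehicle, 3 to 6 on MitoGamide, 0 to 2 on MitoQ and 0 to 1 for ethanol against water in Akita mice. The cause of these shifts was not tested. Per length of the longest transcript, each ratio of Slc5a2 to Slc5a10 was multiplied by the same factor, to 3.82, 4.03, 4.11 and 3.67 in WT mice on ethanol vehicle, MitoGamide, water and MitoQ and 1.58, 1.29, 1.96 and 1.84 in Akita mice.

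Sign changes under other settings were Slc2a4 on water (0.027) and Slc2a1 on MitoQ (0.01), both with the replicate block, Slc5a2 under MitoQ in Akita mice without a filter (0.0010), Slc2a2 for ethanol against water in Akita mice (-0.010 with 10 counts in every library and -0.20 without the libraries rich in mt-Rnr2), and Slc5a2 over all libraries without the latter (0.010). With a library left out, those of the 69 that changed sign ran as follows: Slc5a2 from -0.10 to 0.10 on ethanol vehicle, -0.10 to 0.051 on MitoGamide and -0.043 to 0.017 over all libraries, Slc2a4 on water -0.12 to 0.14, Slc2a1 on MitoQ -0.21 to 0.060, Slc5a10 under MitoGamide in Akita mice -0.020 to 0.16, Slc5a1, Slc5a2 and Slc2a1 under MitoQ in Akita mice -0.52 to 0.13, -0.15 to 0.07 and -0.012 to 0.12, Slc2a2 under MitoQ in WT mice -0.22 to 0.10, Slc2a2 for ethanol against water in Akita mice -0.14 to 0.23, and Slc5a1 for MitoQ minus water -0.40 to 0.26.

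Counts over all genes moved more. On ethanol vehicle 2910 became 844 with all 40 libraries. On water 101 became 354 (DESeq2), 547 (all 40), 32 (replicate block) and 8 (without the libraries rich in mt-Rnr2), and on MitoQ 101 became 415, 308, 48 and 270. For MitoGamide in Akita mice 214 became 1022 (DESeq2), 32 (all 40) and 0 (replicate block), and for ethanol against water in Akita mice 2283 became 4264 (DESeq2), 1352 (no filter), 0 (replicate block) and 1 (without the libraries rich in mt-Rnr2). For drug and vehicle comparisons with 0 genes, DESeq2 called 73 (MitoGamide, WT), 2 (MitoQ, WT) and 724 (ethanol against water, WT), all 40 libraries 18 (MitoQ, WT) and 1567 (ethanol against water, WT), the replicate block 1 and 2 for the same comparisons, and leaving out the libraries rich in mt-Rnr2 gave 2 (MitoQ, Akita). The replicate block gave 6 transporters on MitoGamide and otherwise the same counts of transporters. Depth as given by total counts did not keep any of the 8 transporters out of a test.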
